A study of Mus musculus with 6 samples.

Results

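Mitochondrial ribosomal protein genes were followed in miR-34a-expressing and vector-carrying mouse lung cancer samples. The genes were taken by name: every gene whose current symbol begins with Mrpl or Mrps and a number, with a probe set annotated to that gene alone. This gave 74 genes out of 12393 genes tested. The mouse RefSeq gene table holds 78 protein-coding genes with such symbols. Of the other 4, Mrpl30 and Mrpl53 were annotated only on probe sets shared with another gene, and Mrps10 and Mrps27 were not analysed here. The choice used names and, among the probe sets of a gene, the highest mean over both groups, not the difference between the groups.

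Messenger RNA was measured on 6 Affymetrix mouse arrays, 3 of a miR-34a group and 3 of a vector group. Both groups were made from 344SQ, a single metastatic line with high Zeb1 from the KP mouse model of lung cancer. The miR-34a group carried an inducible miR-34a construct and the vector group the control vector. The design text describes primary tumours from mice injected with these cells, whereas other labels describe cells in culture. The labels do not say whether replicates were separate mice or separate cultures. The p-values below therefore cover the spread between these arrays alone, part or all of which could be technical. The microRNA itself was not analysed here. Its mature mouse strand, miR-34a-5p, is shown because it is the agent that separates the groups, with the seed in capitals (bases 2 to 8, RefSeq, GRCm38.p6, chr4:150068473-150068494, plus strand).
miR-34a-5p: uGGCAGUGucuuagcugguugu

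The mitochondrial ribosome translates the few messenger RNAs of the mitochondrial genome, all of which encode subunits of the oxidative phosphorylation complexes. Its ribosomal RNAs are made inside the organelle, while every one of its proteins is encoded in the nucleus, made in the cytosol and imported. Some of these proteins descend from proteins of the bacterial ribosome and others were gained in mitochondria. The large subunit holds the peptidyl transferase centre and the small subunit the decoding site.

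The 74 genes did not move as a block. A few rose, about as many fell, and no gene changed by as much as 2-fold. After Benjamini-Hochberg adjustment over all genes in the limma fit, 11 of the 74 (14.9%) passed an adjusted p of 0.05, against 11.7% of all genes. Of these, 5 (6.76%) were higher in miR-34a, against 6.5% of all genes, and 6 (8.11%) were lower, against 5.25% of all genes. These shares lie near the background and are not a result about the genes as a list. On the log2 scale, the difference of miR-34a minus vector had a median of 0.06 over the 74 genes and 0.02 over all genes. It ran from -0.83 to 0.55, with the middle of the list between -0.11 and 0.19 (quartiles). A difference above 0 was seen in 43 genes and one below 0 in 31.

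The 3 miR-34a values lay entirely above or below the 3 vector values in 30 of the 74 genes (40.5%), against 34.9% of all genes. Of those 30, 17 were above and 13 below. The 95% confidence interval of the difference stayed within a 2-fold change in either direction for 72 genes (97.3%) and within 0.5 log2 units for 49 (66.2%). The same shares over all genes were 91.4% and 63.6%. No gene of the list reached a 2-fold difference, against 2.36% of all genes.

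**Figure D1:**
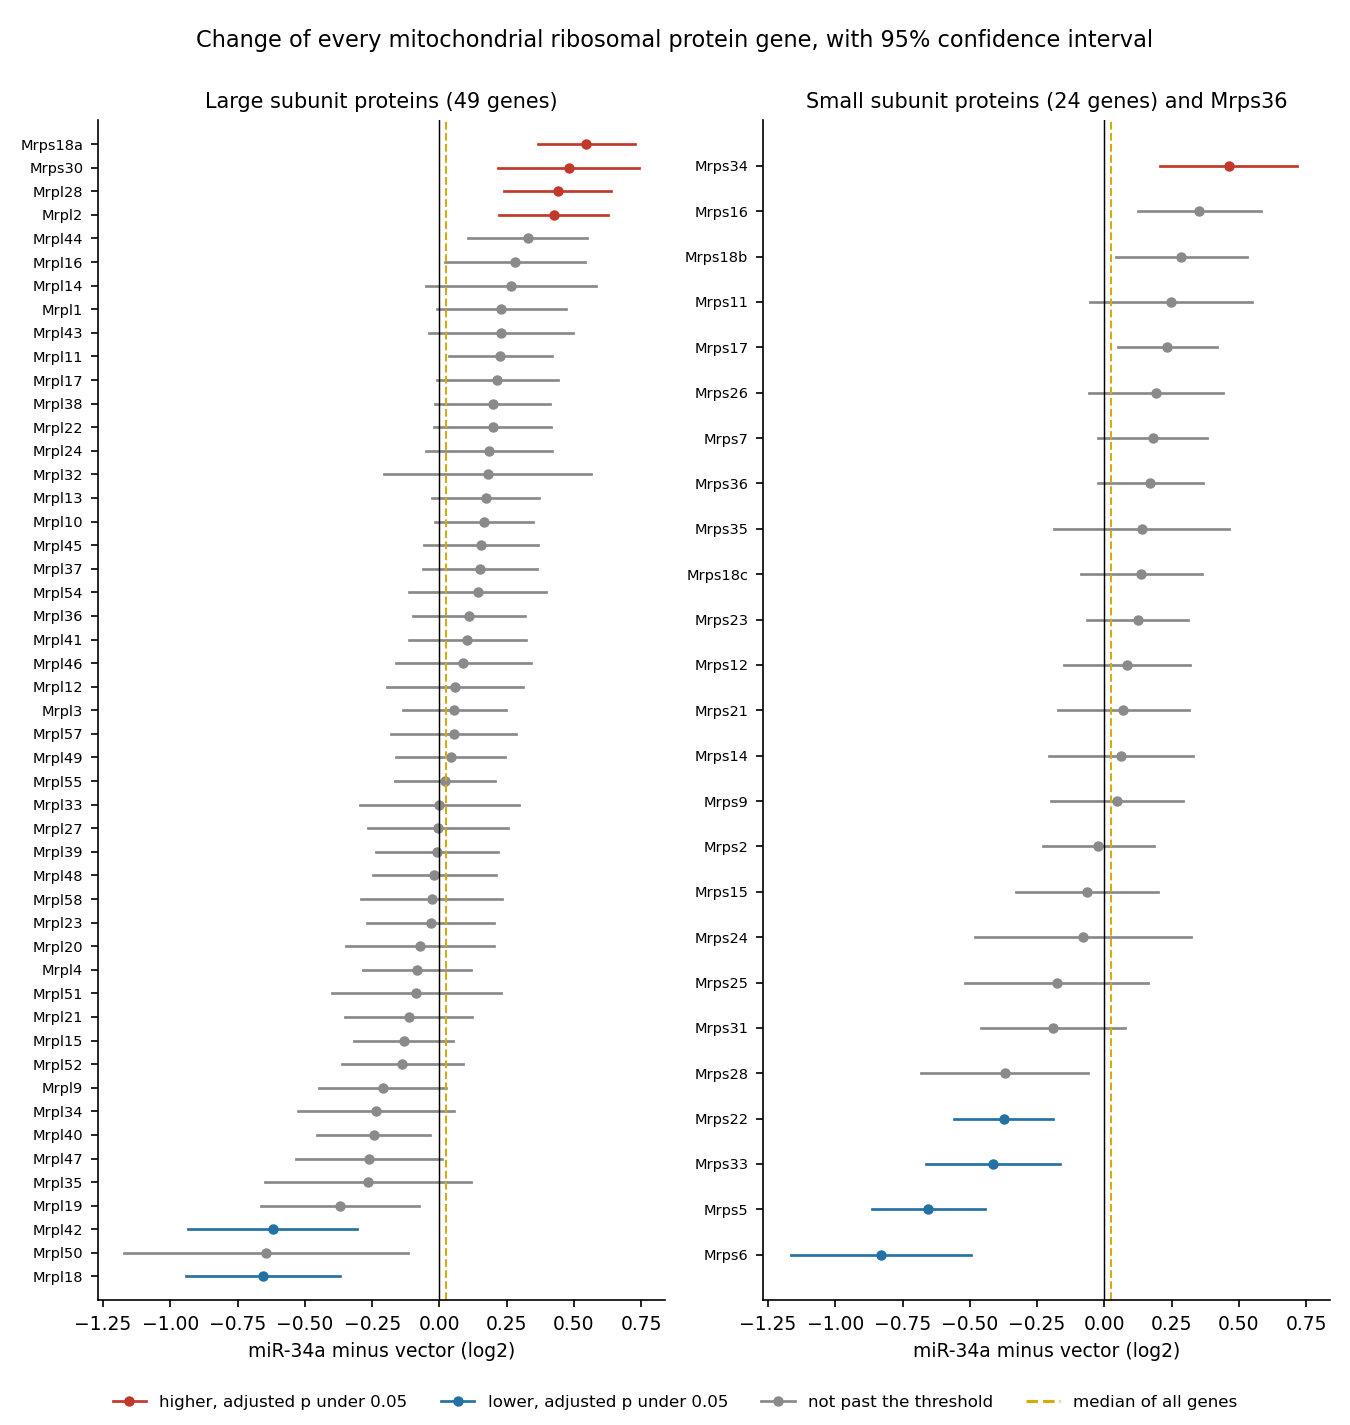
Difference of miR-34a minus vector on the log2 scale (x axis) for each of the 74 genes (y axis), with its 95% confidence interval, in large subunit genes (left) and in small subunit genes with Mrps36 (right). Red marks the 5 genes that rose and blue the 6 that fell at an adjusted p of 0.05, grey marks the rest, and the dashed line is the median of all genes at 0.02. Both panels hold genes on either side of 0.

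Among the 49 genes of large subunit proteins, 4 (8.16%) rose and 2 (4.08%) fell, with a median difference of 0.06. Over all genes 6.5% rose and 5.25% fell. The 49 include Mrps18a and Mrps30, which carry small subunit names while their proteins sit in the large subunit. Mrps18a, related to the bacterial protein S18, had signals of 2781, 2606 and 2773 in miR-34a arrays 1, 2 and 3, against 1914, 1785 and 1877 in vector arrays 1, 2 and 3. All miR-34a values were above all vector values, and the replicates of each group lay close together. The difference was 0.55 ± 0.077 (log2, SE, n = 3 each, limma adjusted p = 0.00918).

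Mrps30, a protein gained in mitochondria, had signals of 2071, 2147 and 2165 in miR-34a and 1300, 1602 and 1688 in vector. Vector 1 was the lowest array, and the groups did not overlap. Its difference was 0.48 ± 0.11 (SE, n = 3 each, limma adjusted p = 0.0366). Mrpl28, the counterpart of bacterial L28, had signals of 4170, 4202 and 4242 in miR-34a and 3264, 3209 and 2832 in vector. The miR-34a arrays were nearly level and vector 3 was the lowest. The difference of Mrpl28 was 0.44 ± 0.085 (SE, n = 3 each, limma adjusted p = 0.0214).

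Mrpl2, the counterpart of the bacterial protein L2 that lies next to the peptidyl transferase centre, had signals of 3581, 3533 and 3533 in miR-34a and 2825, 2700 and 2412 in vector. The vector arrays were spread more widely than the miR-34a arrays and stayed below them. The difference was 0.42 ± 0.086 (SE, n = 3 each, limma adjusted p = 0.0251). Mrps34 was the only small subunit gene that rose. It encodes a protein gained in mitochondria, and mutations of the human gene cause Leigh syndrome. Its signals were 2510, 2438 and 2612 in miR-34a and 2096, 1630 and 1778 in vector, without overlap, with vector 1 nearest to the miR-34a arrays. The difference of Mrps34 was 0.46 ± 0.11 (SE, n = 3 each, limma adjusted p = 0.037).

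Both large subunit genes that fell were lower on every miR-34a array than on any vector array. Mrpl18, the counterpart of bacterial L18, which binds 5S ribosomal RNA in bacteria, had signals of 1091, 1061 and 1121 in miR-34a and 1989, 1455 and 1784 in vector. Its difference was -0.66 ± 0.12 (SE, n = 3 each, limma adjusted p = 0.0195). Mrpl42, gained in mitochondria, had signals of 2462, 2607 and 2385 in miR-34a and 4665, 3327 and 3594 in vector. Vector 1 was far above the rest, and vector 2 and vector 3 still exceeded every miR-34a array. The difference of Mrpl42 was -0.62 ± 0.13 (SE, n = 3 each, limma adjusted p = 0.0296).

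Among the 24 genes of small subunit proteins, 1 (4.17%) rose and 4 (16.7%) fell, with a median difference of 0.07. Over all genes these shares were 6.5% and 5.25%. The difference between the subunits was not tested. Mrps5 is the counterpart of bacterial S5, a protein of the decoding region whose knockdown lengthens life in the worm Caenorhabditis elegans. Its signals were 696, 771 and 762 in miR-34a and 1268, 1104 and 1165 in vector. The groups lay far apart relative to their spread. The difference of Mrps5 was -0.65 ± 0.089 (SE, n = 3 each, limma adjusted p = 0.00846), the smallest adjusted p among the 74 genes.

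Mrps6, the counterpart of bacterial S6, had signals of 480, 619 and 511 in miR-34a and 1148, 873 and 887 in vector. Vector 1 was the highest array, and the groups did not overlap. Its difference of -0.83 ± 0.14 (SE, n = 3 each, limma adjusted p = 0.0162) was the furthest from 0 of the 74.

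Mrps22 and Mrps33 encode proteins gained in mitochondria, and mutations of human MRPS22 cause a respiratory chain deficiency. Mrps22 had signals of 1279, 1332 and 1345 in miR-34a and 1665, 1660 and 1819 in vector, a difference of -0.37 ± 0.078 (SE, n = 3 each, limma adjusted p = 0.0275). Mrps33 had signals of 1778, 1886 and 1690 in miR-34a and 2615, 2089 and 2461 in vector, a difference of -0.41 ± 0.11 (SE, n = 3 each, limma adjusted p = 0.0492). In both genes every miR-34a array was below every vector array.

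**Figure D2:**
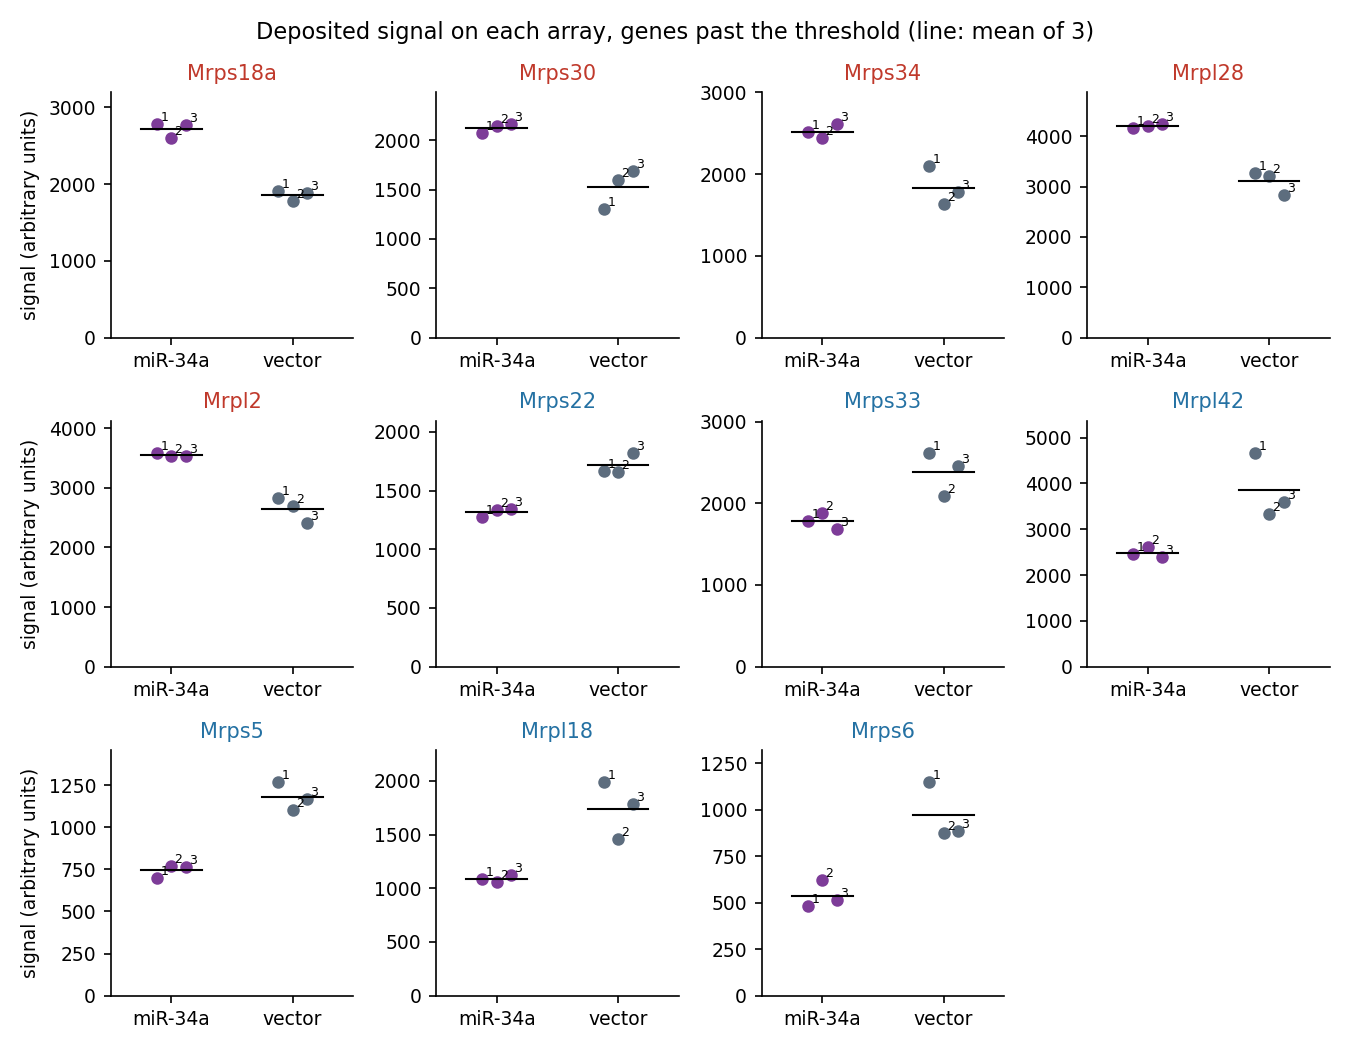
Deposited signal in arbitrary units (y axis, from 0) on each array for the 11 genes that passed the threshold, with miR-34a arrays left of vector arrays, replicate numbers beside the points and the mean of 3 as a line. Red titles mark genes that rose and blue titles genes that fell. The groups do not overlap in any panel, and vector 1 is the highest array for Mrps6, Mrpl18, Mrpl42, Mrps33 and Mrps5.

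Grouped by descent, the 29 large subunit genes with a bacterial counterpart held 2 that rose (6.9%) and 1 that fell (3.45%). The 20 classed as without a bacterial counterpart in the large subunit held 2 that rose (10%) and 1 that fell (5%). Mrps18a, 1 of the 2 that rose, is a relative of bacterial S18. It was counted here for its place in the large subunit, not for its descent. Of the 16 small subunit genes with a bacterial counterpart, 0 rose and 2 (12.5%) fell, with 3 higher at an unadjusted p under 0.05 in limma. Mrps18b is counted among the 16, as a relative of bacterial S18, and is among those 3. Of the 8 small subunit genes gained in mitochondria, 1 (12.5%) rose and 2 (25%) fell. Over all genes 6.5% rose and 5.25% fell. The median differences of these groups were 0.06, 0.07, 0.07 and -0.03 in that order. The Mrps18 genes, 3 relatives of bacterial S18, were all above 0 in their fitted difference, and only Mrps18a passed. Mrps18b had signals of 2884, 3090 and 2879 in miR-34a and 2731, 2175 and 2374 in vector, a difference of 0.29 (limma adjusted p = 0.12). Mrps18c had signals of 3066, 2513 and 2854 in miR-34a and 2476, 2529 and 2635 in vector, a difference of 0.14 (limma adjusted p = 0.403). The groups of Mrps18c overlapped and those of Mrps18b did not.

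Some of the wider differences missed the threshold. Mrpl50, gained in mitochondria, had signals of 1287, 1363 and 1231 in miR-34a and 2940, 1504 and 1890 in vector, a difference of -0.64 ± 0.22 (SE, n = 3 each, limma adjusted p = 0.113). Vector 1 carried much of that spread: leaving out each array in turn gave differences of -0.86 without vector 2, where the gene passed (limma adjusted p = 0.0438), to -0.38 without vector 1. The second probe set of Mrpl50 stood at -0.25, and the average of its probe sets at -0.45. Mrps28, related to bacterial S1, stood at -0.37 (limma adjusted p = 0.116), and Mrpl19, the counterpart of bacterial L19, at -0.37 (limma adjusted p = 0.103). Vector 1 was the highest array for both, and without it the difference was -0.24 for each.

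In the other direction, Mrps16, the counterpart of bacterial S16, had signals of 2646, 2890 and 2972 in miR-34a and 2403, 2011 and 2246 in vector. Its difference was 0.35 (limma adjusted p = 0.0589). Mrpl44, a large subunit protein with a ribonuclease III-like fold, had signals of 1486, 1658 and 1608 in miR-34a and 1154, 1371 and 1257 in vector. Its difference was 0.33 (limma adjusted p = 0.068), and 0.20 when its probe sets were averaged. Neither gene's groups overlapped.

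Genes with roles of their own included some close to 0. Mrpl12, the stalk protein that also binds the mitochondrial RNA polymerase, had signals of 3617, 3856 and 3986 in miR-34a and 4211, 3450 and 3380 in vector. Its difference was 0.06, with a 95% confidence interval of -0.19 to 0.31 (limma adjusted p = 0.767). Mrps12, the counterpart of the bacterial decoding protein S12, had a difference of 0.08, with an interval of -0.15 to 0.32 (limma adjusted p = 0.638). The groups overlapped in both genes. When each array was centred on its own median, these differences became -0.04 for Mrpl12 and -0.01 for Mrps12. Mrps36 is now known as a component of the 2-oxoglutarate dehydrogenase complex and was kept apart from both subunits. It had signals of 1529, 1587 and 1644 in miR-34a and 1406, 1322 and 1498 in vector, a difference of 0.17 (limma adjusted p = 0.23). Mrpl47, the counterpart of bacterial L29, had signals of 1619, 1984 and 1491 in miR-34a and 2013, 1990 and 2073 in vector, a difference of -0.26 (limma adjusted p = 0.191). The groups did not overlap in Mrps36 or in Mrpl47, where miR-34a 2 came close to the vector arrays.

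Mrpl15, Mrpl52, Mrpl51 and Mrpl24 had the highest signals of the list over the 6 arrays. Mrpl15 had 6218, 6220 and 6113 in miR-34a and 7046, 6949 and 6374 in vector, a difference of -0.13 (limma adjusted p = 0.314). The differences were -0.14 for Mrpl52, -0.09 for Mrpl51 and 0.18 for Mrpl24, with limma adjusted p of 0.397, 0.73 and 0.281 in that order. Mrpl51 stood at 0.06 without vector 1. Besides Mrps5 and Mrps6, Mrps11 and Mrpl1 had the lowest signals. Their differences were 0.25 for Mrps11 (limma adjusted p = 0.259) and 0.23 for Mrpl1 (limma adjusted p = 0.19). Leaving out each array gave 0.13 to 0.36 for Mrps11. The other 2 probe sets of Mrpl1 stood at 0.05 and -0.0052, and the average of its probe sets at 0.09.

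Most of the 11 calls did not hold in every fit with 1 array left out. Mrps5 alone among the 11 kept its call, on the probe set used, when any one array was left out. Its margin was narrow without miR-34a 1 (limma adjusted p = 0.0496) and without miR-34a 3 (limma adjusted p = 0.0487). Mrps18a narrowly missed in those same fits (limma adjusted p = 0.0557 and 0.0565). Mrps18a and Mrps6 kept their calls in 4 of the 6 fits with an array left out, and the other 8 in 1 or 2. Leaving out miR-34a 1 left 0 genes of the list higher and 1 lower in limma, against 9 higher and 6 lower at an unadjusted p under 0.05. Leaving out miR-34a 3 also left 0 higher and 1 lower, against 7 and 8 at an unadjusted p under 0.05. No share over all genes was counted at that unadjusted cut, so these counts have no background beside them. The fall in calls ran through the whole table, with 255 genes called without miR-34a 1 and 226 without miR-34a 3, against 1456 with all arrays. No difference among the 11 moved by more than 1.5 times in any of these fits. With each array centred on its median, Mrpl2, Mrps30 and Mrps34 no longer passed. Mrps18a, Mrpl28 and the 6 genes that fell still did.

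Vector 1 stood apart from the other arrays on the first principal component of all genes. For the 74 genes it was the highest of the 6 arrays in 31 genes (41.9%), against 30.0% of all genes. Vector 2 was the lowest in 32 (43.2%), against 20.2% of all genes. The median over the 74 genes, relative to the vector mean of each gene, was 0.06, 0.06 and 0.09 on miR-34a arrays 1, 2 and 3 and 0.12, -0.10 and -0.01 on vector arrays 1, 2 and 3. The miR-34a arrays therefore lay inside the range of the vector arrays. The median SD between replicates was 0.070 in miR-34a and 0.142 in vector for these genes, and 0.099 in miR-34a and 0.134 in vector for all genes. Without vector 1, 9 of the 74 genes (12.2%) rose, against 10.1% of all genes, and 6 (8.11%) fell, against 7.15% of all genes. The added calls thus ran through the whole table. The median difference without vector 1 was 0.12 for the list and 0.05 for all genes. Of the 11 calls, 10 held without vector 1. Mrps33 lost its call, at a limma adjusted p of 0.0579, and Mrpl16, Mrps11, Mrps16, Mrps18b and Mrps31 gained one.

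**Figure D3:**
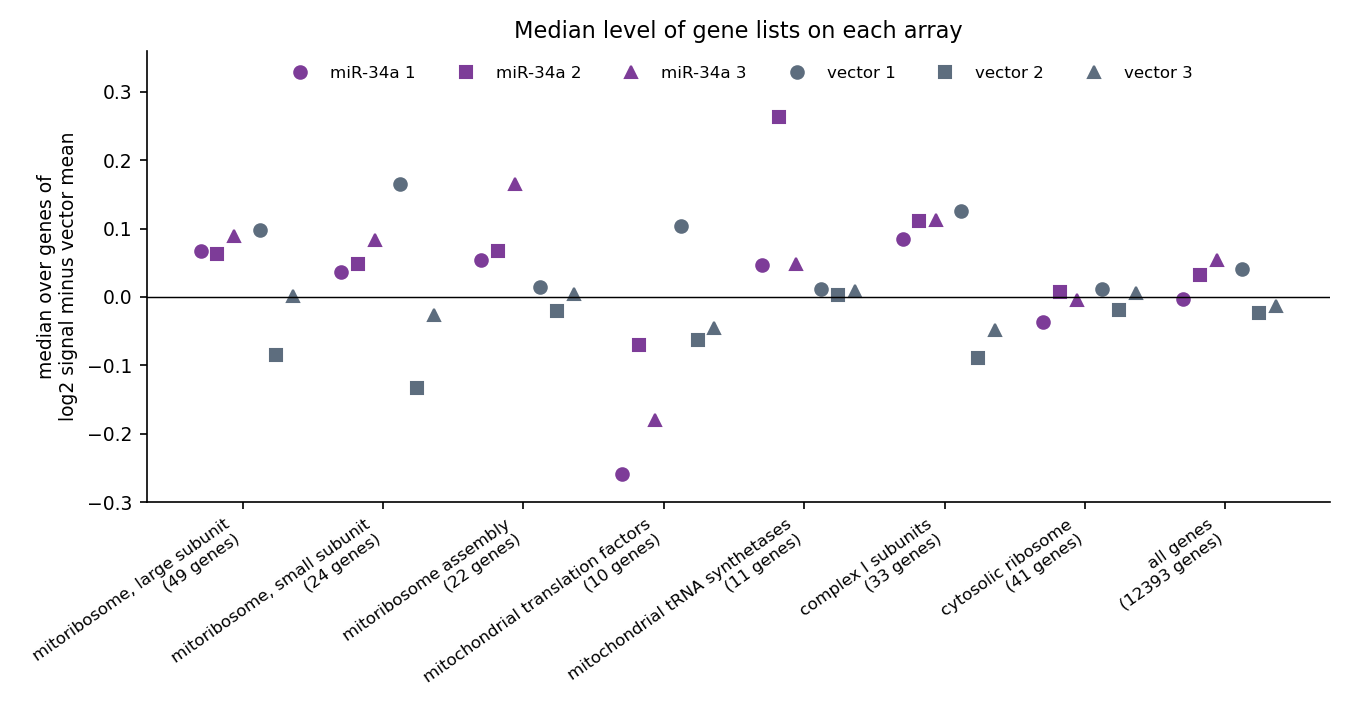
Median over the genes of each list of log2 signal minus the gene's vector mean (y axis) for each array, with miR-34a arrays (purple) left of vector arrays (grey) and the number of genes under each list. For both subunits of the mitochondrial ribosome the 3 miR-34a arrays lie between vector 1 above and vector 2 below, while the translation factor list is lower on all 3 miR-34a arrays than on all 3 vector arrays.

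Cell type markers also differed between the arrays. Of all genes, 6.5% passed as higher and 5.25% as lower. The summed signal of 10 fibroblast markers was 37663 to 54500 in miR-34a and 13249 to 47423 in vector, lowest in vector 1, and 1 of the 10 passed as higher. That of 10 macrophage markers was 22536 to 26285 in miR-34a and 12154 to 21408 in vector, also lowest in vector 1, with 2 higher and 1 lower. That of 7 mast cell markers was 3345 to 5382 in miR-34a and 993 to 1357 in vector, with 4 higher. That of 10 skeletal muscle markers was 2417 to 6912 in miR-34a and 2243 to 2887 in vector, with 0 past the threshold in limma and 3 at an unadjusted p under 0.05. The 8 epithelial markers summed to 72173 to 76267 in miR-34a and 68818 to 80523 in vector, with 0 past the threshold in limma and 1 at an unadjusted p under 0.05. Of these 8, 4 had a difference above 0 and 4 below, from -0.30 for Cldn4, a tight junction gene with that unadjusted p, to 0.42 for Epcam, an epithelial adhesion gene. The signals of Epcam were 1001, 1142 and 951 in miR-34a and 305, 977 and 1463 in vector, lowest in vector 1. Of 8 endothelial, 7 T and NK cell and 5 adipocyte markers measured, 0 passed in limma. At an unadjusted p under 0.05 in limma, 1 endothelial marker was higher and 1 lower. At that cut 2 T and NK cell markers were higher and 0 lower, and 0 adipocyte markers differed. None of these markers was listed at 0. The part of these cell types in the differences of the ribosomal protein genes was not tested, and in bulk RNA fewer cells of a type cannot be told apart from less RNA per cell.

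Of the 5 genes that rose, 4 lie on 1 chromosome, a feature noticed after their values were seen. By the RefSeq table, 7 of the 74 genes are on chromosome 17. Of these, Mrps18a, Mrpl28, Mrpl2 and Mrps34 rose and Mrpl18 fell. Mrps18b at 0.29 and Mrpl14 at 0.27 did not pass. The other 67 genes held 1 that rose, Mrps30 on chromosome 13, and 5 that fell, no 2 of them on the same chromosome. The median difference was 0.42 for the 7 genes and 0.05 for the 67.

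Of the 582 genes tested on chromosome 17, 60 (10.3%) were higher and 19 (3.26%) lower, against 6.39% higher and 5.42% lower among the 11573 genes placed elsewhere. The median difference was 0.07 on chromosome 17 and 0.02 elsewhere. For the 7 ribosomal protein genes, the median relative to the vector mean was 0.43, 0.41 and 0.42 on miR-34a arrays 1, 2 and 3 and 0.18, -0.15 and -0.03 on vector arrays 1, 2 and 3. Without vector 1 the median difference of the 7 was 0.47, and 5 rose. In that fit 10.1% of all genes rose, against 6.5% with all arrays. The median over all genes on chromosome 17 was then 0.09, and their share that rose was not counted. Whether the chromosome bears on these differences was not tested. Chromosome 11 carries the most genes of the list, 11, and 0 of them passed in limma, with 0 at an unadjusted p under 0.05.

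**Figure D4:**
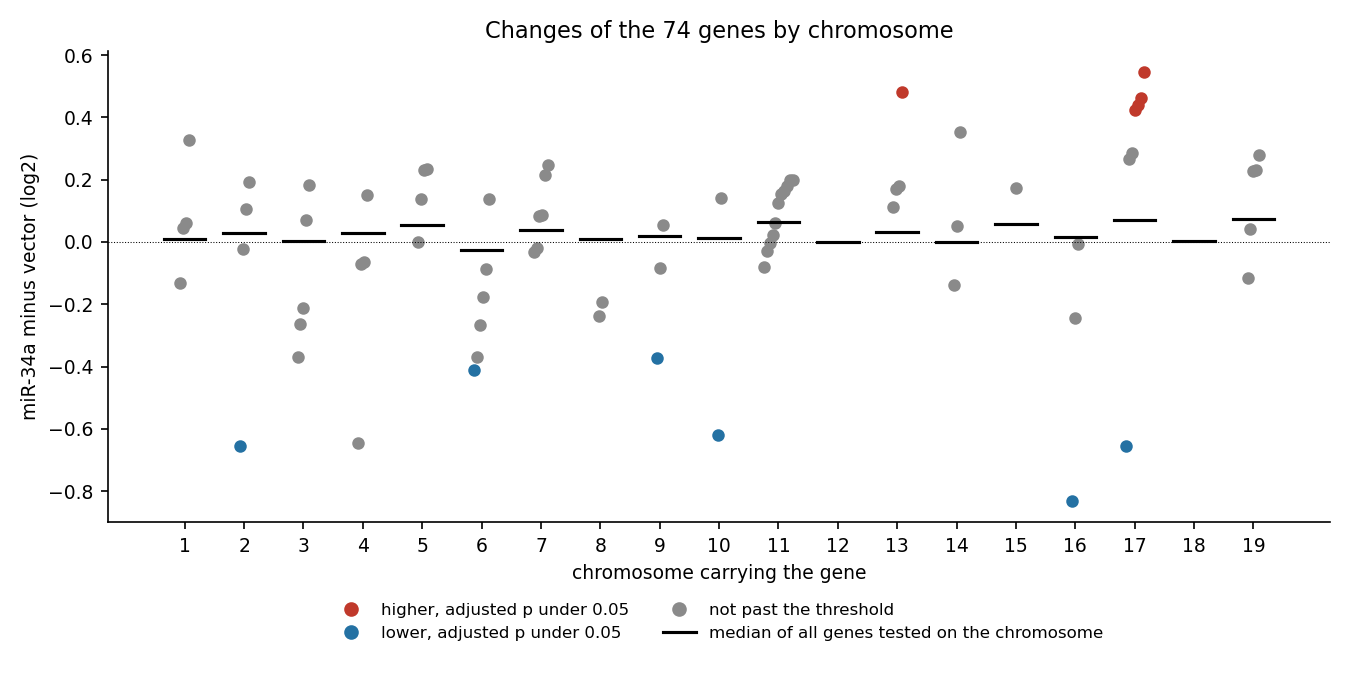
Difference of miR-34a minus vector on the log2 scale (y axis) for each of the 74 genes, placed by chromosome (x axis), with the median of all genes tested on that chromosome as a black line. Red points rose, blue points fell and grey points did not pass. The 4 red points on chromosome 17 sit between 0.42 and 0.55, while the median of all genes there is 0.07.

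The density of genes around each gene was also set beside its difference. The median number of protein-coding genes within 500 kb was 34 for the 5 genes that rose, 15.5 for the 6 that fell and 19 for those that did not pass. Over all genes it was 21 for genes that rose, 10 for genes that fell and 15 for all tested. Across the 74 genes, Spearman's rho between this number and the difference was 0.23, and 0.35 without vector 1. Over all genes placed it was 0.17, and 0.23 without vector 1. These are correlations across genes that share arrays and neighbours, given as a description.

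Where several probe sets were annotated to a gene, they did not always point the same way. The 74 genes had 127 probe sets in all: 41 genes had 1 and 33 had several, and in 14 of the 33 the fitted differences had opposite signs. Of the 11 genes that passed, 3 had several, with no opposite signs. The other 2 probe sets of Mrpl28 stood at 0.39 and 0.41. The second probe set of Mrps5 stood at -0.28 and that of Mrpl42 at -0.23, each nearer to 0 than the one used. In a limma fit over all probe sets with 1 symbol, neither passed (adjusted p = 0.127 and 0.108). The second probe set of Mrps5 had a mean log2 level of 9.57, against 9.89 for the one used. For Mrpl42 these levels were 6.08 and 11.60. With probe sets averaged, Mrps5 at -0.47 and Mrpl42 at -0.42 kept their calls. Mrpl15 had 7 probe sets, and the 6 not used ran from -0.31 to 0.07. The second probe set of Mrpl9 stood at -0.58 and passed in the limma fit over all probe sets (adjusted p = 0.0443). The one used for Mrpl9 stood at -0.21 and did not pass there (limma adjusted p = 0.218).

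Probe sets shared with another gene cannot be given to one of them. The one shared by Mrps34 and Nme3 had a difference of -0.07, against 0.46 for the probe set of Mrps34 alone. The one shared by Mrpl30 and Gm6238 stood at -0.09 and the one shared by Mrpl53 and Ccdc142 at -0.38.

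Promoter sequences were searched for the motifs of factors known to drive nuclear genes for mitochondrial proteins. RefSeq windows of 300 bases, 250 before and 50 after the start site, were found for 65 of the 74 genes and for 9882 of all genes tested. Each was searched on both strands for the NRF1 core GCGCANGC, the ETS core CCGGAAG bound by GABPA, and the YY1 core AAGATGGC. The NRF1 core was in 21 genes (32.3%), against 18.8% of all genes. The ETS core was in 24 (36.9%), against 16.4%, and the YY1 core in 11 (16.9%), against 4.39%. Any of the 3 was in 43 (66.2%), against 33.7%. The median GC content was 58.0% in the list and 59.3% in all genes. No matches of different motifs overlapped. A match is a string of letters and was not tested as a binding site.

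By outcome, a match was found in 1 of the 4 genes that rose and had a window, in 4 of the 6 that fell and in 38 of the 55 that did not pass. By motif, the NRF1 core was in 0 of the 10 that passed and 21 of the 55 that did not, the ETS core in 4 of 10 and 20 of 55, and the YY1 core in 2 of 10 and 9 of 55. These contrasts were seen after the calls were known and were not tested. Mrps18b, which passed without vector 1, holds the NRF1 core. Windows are printed for the genes with the smallest p in each direction, Mrps18a and Mrps5, and for Mrps22, the gene with the smallest p among those that fell and have a match in this stretch. Each runs from 150 bases before to 50 after the start site, on the strand of the gene, with matches in capitals. Mrps18a (chr17:46110854-46111053, plus strand, GRCm38.p6) has the ETS core from base -26 and the YY1 core from base 12 after the start site. Mrps22 (chr9:98601630-98601829, minus strand) has the ETS core from base -11, and Mrps5 (chr2:127587276-127587475, plus strand) has none of the 3.
Mrps18a: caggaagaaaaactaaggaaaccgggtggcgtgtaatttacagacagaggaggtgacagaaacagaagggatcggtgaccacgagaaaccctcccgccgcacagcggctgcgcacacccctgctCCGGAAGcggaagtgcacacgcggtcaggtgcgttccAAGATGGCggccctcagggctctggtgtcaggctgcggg
Mrps5: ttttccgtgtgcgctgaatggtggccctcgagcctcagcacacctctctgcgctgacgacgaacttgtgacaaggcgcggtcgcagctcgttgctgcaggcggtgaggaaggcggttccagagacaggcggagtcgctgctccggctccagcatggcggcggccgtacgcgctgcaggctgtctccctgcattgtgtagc
Mrps22: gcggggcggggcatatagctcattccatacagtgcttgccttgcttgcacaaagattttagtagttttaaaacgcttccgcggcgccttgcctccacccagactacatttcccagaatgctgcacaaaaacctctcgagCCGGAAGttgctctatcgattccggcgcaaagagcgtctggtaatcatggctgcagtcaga

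**Figure D5:**
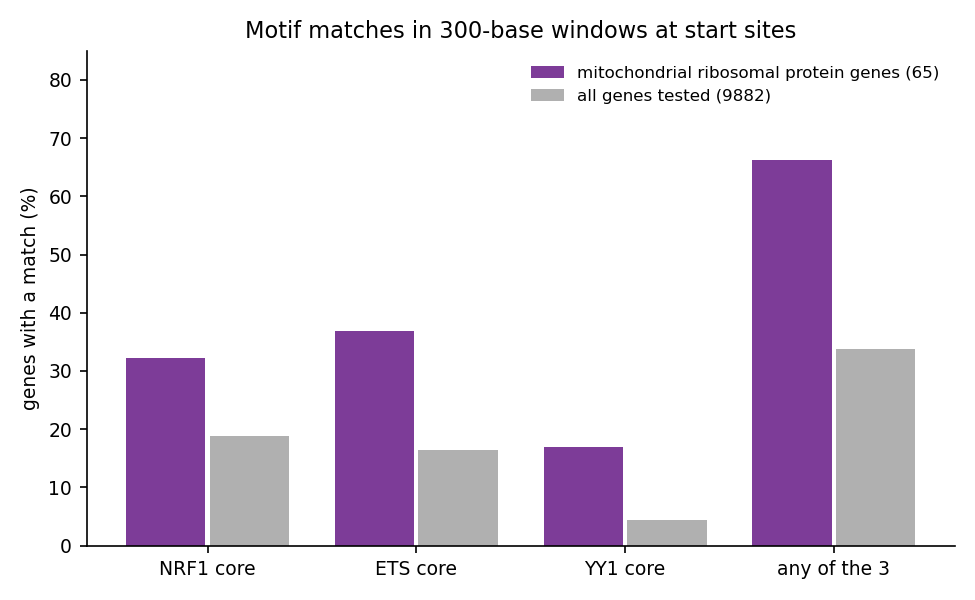
Share of genes in percent (y axis, from 0) with a match to each motif in the 300-base window, for the 65 mitochondrial ribosomal protein genes with a window (purple) left of the 9882 genes tested with a window (grey). Each share is higher in the ribosomal protein genes, at 66.2% against 33.7% for any of the 3 motifs.

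The factors named with these motifs did not pass the threshold with all 6 arrays. The difference was 0.05 for Nrf1, -0.28 for Gabpa and 0.10 for Yy1. Leaving out single arrays gave -0.40 to -0.16 for Gabpa, which passed in 1 of these 6 fits, without vector 1 (limma adjusted p = 0.042). It was -0.29 for Ppargc1a, a coactivator of mitochondrial gene programmes, and -0.08 for Myc, which drives ribosome production. Of the 10 regulators measured, 0 passed in limma, and 1 had an unadjusted p under 0.05.

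Other genes of the same machinery moved in part. The 4 measured genes of mitochondrial ribosomal proteins with other names were Dap3 at 0.31, Chchd1 at 0.36, Gadd45gip1 at 0.17 and Ptcd3 at -0.42. Of the 4, 0 passed in limma and 3 had an unadjusted p under 0.05. Of 22 assembly factors measured, 4 (18.2%) rose and 0 fell in limma, against 6.5% and 5.25% of all genes. At an unadjusted p under 0.05 in limma, 8 were higher and 0 lower, a cut for which no share over all genes was counted. The median difference of the 22 was 0.11. The contrast with all genes was not tested. Trub2, which makes pseudouridine in mitochondrial RNA, had signals of 1057, 1089 and 976 in miR-34a and 427, 666 and 553 in vector. Its difference was 0.93 ± 0.16 (SE, n = 3 each, limma adjusted p = 0.0155).

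Nsun4 and Mterf4 encode partners in assembly of the ribosome. Nsun4 had signals of 1601, 1408 and 1414 in miR-34a and 620, 1028 and 860 in vector, a difference of 0.83 (limma adjusted p = 0.0288). Mterf4 had a difference of 0.34 (limma adjusted p = 0.0432). Mrm2, a methyltransferase of the large ribosomal RNA, had signals of 538, 501 and 524 in miR-34a and 341, 372 and 329 in vector, a difference of 0.57 (limma adjusted p = 0.0103). All 4 were higher on every miR-34a array than on any vector array. With each array left out in turn, Mrm2 kept its call in 4 of 6 fits, Trub2 in 3, Nsun4 in 2 and Mterf4 in 0, and Mterf4 also lost it under median centring.

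Of 10 genes for translation factors and mitochondrial RNA handling, 0 rose and 2 (20%) fell in limma, against 6.5% and 5.25% of all genes. At an unadjusted p under 0.05 in limma, 0 were higher and 4 lower. The median difference of the 10 was -0.16. Slirp, whose protein stabilises mitochondrial messenger RNA together with Lrpprc, had signals of 2202, 2339 and 1902 in miR-34a and 3880, 3248 and 3407 in vector. Its difference was -0.71 ± 0.11 (SE, n = 3 each, limma adjusted p = 0.013). Pnpt1, the mitochondrial polynucleotide phosphorylase, had signals of 468, 538 and 468 in miR-34a and 765, 711 and 735 in vector, a difference of -0.57 (limma adjusted p = 0.0118). Slirp and Pnpt1 each kept the call in 4 of the 6 fits with an array left out. Lrpprc itself stood at -0.27 (limma adjusted p = 0.158). Of 11 mitochondrial aminoacyl-tRNA synthetase and related genes 0 passed in limma, and 3 had an unadjusted p under 0.05. Their median difference was 0.07.

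Of 12 genes of mitochondrial DNA upkeep and transcription, 1 (8.33%) rose and 1 (8.33%) fell, against 6.5% and 5.25% of all genes. Ssbp1, which binds single-stranded mitochondrial DNA, had signals of 3469, 3475 and 3431 in miR-34a and 5733, 5192 and 4730 in vector, a difference of -0.59 (limma adjusted p = 0.0126). Tk2, the mitochondrial thymidine kinase, had a difference of 0.46 (limma adjusted p = 0.0433). Ssbp1 kept its call in 4 of the 6 fits with an array left out and Tk2 in 0, and Tk2 also lost it under median centring.

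ND5 was the only gene of the mitochondrial genome with a probe set of its own. It encodes a complex I subunit made by the mitochondrial ribosome. Its signals were 10138, 8545 and 9166 in miR-34a and 15030, 17686 and 13837 in vector. Every miR-34a array was below every vector array, and the difference was -0.74 ± 0.12 (SE, n = 3 each, limma adjusted p = 0.0133). Leaving out each array in turn gave differences of -0.82 to -0.64, and the call was lost only without miR-34a 3. ND5 was added after its value was seen.

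Set beside these, the 41 cytosolic ribosomal protein genes measured had 0 past the threshold in limma, with 1 higher and 3 lower at an unadjusted p under 0.05, and a median difference of -0.01. The 33 complex I subunit genes of the nucleus had 3 that rose (9.09%) and 1 that fell (3.03%), with a median of 0.09. Over all genes 6.5% rose and 5.25% fell. The 74 mitochondrial ribosomal protein genes had a median of 0.06 and differences of -0.83 to 0.55. The differences ran from -0.38 to 0.49 for the cytosolic genes and from -0.88 to 0.60 for complex I. The median signal level lay at percentile 99.7 of all genes for the cytosolic genes and at 78.4 for the 74. Whether level bears on these ranges was not tested. The difference between these lists was not tested.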

How the data were processed

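Per the labels, biotin-labelled RNA of 6 samples was read on Affymetrix mouse arrays. The authors deposited 1 table of linear intensities for 22690 probe sets, fewer than the array model named in the design text holds, which limits which genes could be measured. How these were summarised, normalized and background-corrected is not stated in the labels used. The medians per array ran from 467 to 484, so the values were taken as already scaled. Without detection calls, dim signal and background cannot be separated, and the number of arrays, 3 per group, limits precision.

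Groups come from the sample titles. Probe sets were named by the platform annotation, with symbols brought up to date by Entrez identifier in the RefSeq table of GRCm38.p6: 20380 probe sets had 1 symbol, 691 had several and 1555 were not listed, besides 64 control probe sets. Among probe sets of 1 gene, that of highest mean log2 value stood for the gene. This gave 12393 genes.

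The scale was log2(intensity + 16), on which changes of dim genes are understated. Genes were fitted in R 4.3.3 with limma 3.58.1 (lmFit, eBayes), two-sided, with Benjamini-Hochberg adjustment over all genes at 0.05. Counts at an unadjusted p under 0.05 were made for the lists only, not over all genes. The fit was also run on simulated data with independent errors and planted changes larger than any in the list, as a check of the code. Such data hold no structure shared between arrays, so they do not bear on the calls here. No gene of the list was removed by a filter, and all 74 stayed when genes below the median level were left out. The genes and lists were chosen with earlier results of these data known. Genes were named if they passed the threshold, had the 4 highest or 4 lowest levels, were among the 3 largest changes in each direction that did not pass, or were fixed for their role. Other genes are named where the text says how they were chosen, or as examples of small counts. Promoter and miRNA sequences are from RefSeq, and 9 genes of the list had no promoter window. Python 3.11.15 and matplotlib 3.10.9 were used for counts and figures.

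The alternatives tried were median centring or quantile normalization of arrays, pseudocounts of 1 and 64, a filter on genes below the median level, and averaging the probe sets of a gene. Others were array weights, a robust variance trend, a block for the replicate number, leaving out each array, and thresholds of 0.01 and 0.1. The sample titles number the replicates of both groups without saying what a number shares. Deviations of same-numbered arrays from their group means correlated at -0.17, -0.09 and -0.08, so the numbers were not taken to pair the samples.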

Additional observations from a re-analysis of the deposited data

How the results depend on the processing

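With 5 genes higher and 6 lower in miR-34a, counts stayed within 1.5 times under quantile normalization, averaged probe sets, pseudocounts of 1 and 64, a robust variance trend, a filter on genes below the median level and a threshold of 0.1. Median centring gave 2 higher and 6 lower, and over all genes 451 higher and 992 lower, against 805 and 651. It lowered differences by about 0.10, put the median over the list at -0.03 (all genes -0.07), and turned the sign of 10 of the 74 genes, among them Mrpl12 at -0.036 and Mrps12 at -0.011. Array weights gave 17 higher (23%, against 15.5% of all genes) and 10 lower (13.5%, against 10.6%), and Mrpl51 at 0.032. Leaving out each array gave -0.165 to 0.058 for Mrpl51, above 0 without vector 1. A threshold of 0.01 left 1 higher and 1 lower, a cut for which no share over all genes is given here. The replicate block left 1 higher (Mrps18a) and 2 lower (Mrps5 and Mrpl18), with 522 genes called in all, and a median of 0.06. Leaving out each array in turn gave 0 to 9 genes higher, 1 to 7 lower and medians of 0.02 to 0.12, while over all genes 98 to 1247 were higher and 128 to 886 lower. Among 28 named genes no other sign turned in these alternatives. The causes were not tested. With 3 arrays per group and no background measure, small differences in dim probe sets could not be resolved.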
